A study of Mus musculus with 9 samples.

Results

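The 10 genes described here belong to one membrane-associated proteolytic system and were followed in KLN205 tumors in which *Tmprss11b*, itself 1 of the 10, had been silenced. They were picked by symbol from the deposited expression table, and all 10 of them were among its 19481 genes. The set holds 5 transmembrane proteases of the TMPRSS family (*Tmprss11b*, *Tmprss11d*, *Tmprss11e*, *Tmprss4* and *Tmprss2*), the matriptase gene *St14*, the prostasin gene *Prss8*, the inhibitor genes *Spint1* and *Spint2*, and *F2rl1*, which encodes the protease-activated receptor PAR2. The table lists *Tmprss11b* under the older symbol *Tmprss11bnl*. The comparisons ask whether the other members stayed where they were when *Tmprss11b* was silenced, and whether any of them moved in the opposite direction.

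KLN205 is a mouse lung squamous cell carcinoma line, and the tumors grew under the skin of female DBA/2 mice that were 6 to 8 weeks old at injection. All 3 groups carried a doxycycline-inducible SMARTvector shRNA and all mice received doxycycline in their water once the mean tumor volume had reached 100 mm3, and tumors were collected on day 50. The groups were a scrambled control shRNA, the *Tmprss11b* construct sh2 and the *Tmprss11b* construct sh3, each with 3 tumors from different mice. The line and its host share a strain background, so RNA of tumor cells and of host cells was counted together, and in these bulk samples fewer cells of a type and less RNA per cell cannot be told apart.

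Type II transmembrane serine proteases are anchored in the plasma membrane by their amino terminus and carry a trypsin-like catalytic domain outside the cell. They are made as zymogens and are switched on by a single cleavage. Matriptase and the lipid-anchored protease prostasin work together in epithelia, where both are held in check by the Kunitz-type inhibitors HAI-1 (*Spint1*) and HAI-2 (*Spint2*). PAR2 is a G protein-coupled receptor that is activated when such a protease cuts its extracellular end and exposes a tethered ligand. *Tmprss11d* encodes the airway trypsin-like protease HAT, and *Tmprss11e* encodes DESC1, both close relatives of *Tmprss11b*.

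The catalytic center that makes these genes a family, and that also makes reads from relatives a concern, was read from the transcripts of GENCODE M21 (GRCm38, the sequence of mm10). Each line below gives 30 coding bases, 5′ to 3′, with the codon of the catalytic serine in capitals.
Tmprss11b: tgccagggtgacTCTggaggaccactagtt
Tmprss11e: tgccagggtgacTCGggaggtccacttgtt
Tmprss11d: tgccagggtgatTCAggtggcccgctagta
Tmprss2: tgccagggagacAGTggagggccgctggtt
Tmprss4: tgccagggtgacAGTggtgggcctttgatg
St14: tgccagggtgacTCTggtggccccttgtca
Prss8: tgccagggtgacTCTgggggcccactctct
In all 7 proteases an intron falls after the first 6 of these bases, so that the serine codon lies in the following exon. For *Tmprss11b* the first 6 bases are at chr5:86661543-86661548 in exon 9 and the other 24 at chr5:86660603-86660626 in exon 10, on the minus strand. Against *Tmprss11b*, 27 of the 30 bases were the same in *Tmprss11e*, 25 in *Prss8*, 24 in *Tmprss11d* and *Tmprss2*, 22 in *St14* and 21 in *Tmprss4*. Outside such short stretches the genes differ. Over the whole aligned coding sequence, with gaps counted as differences, *Tmprss11e* was 60.1% identical to *Tmprss11b*, *Tmprss11d* 58.2% and *Tmprss4* 53.8%. *St14* was at 41.7%, but its coding sequence has 2565 bases against 1248 in *Tmprss11b*. Its value is lowered by that length and cannot be compared with the others.

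The longest run of bases that *Tmprss11b* shared exactly with a relative was 23 bases, with *Tmprss11f*. It lies in exon 7 of *Tmprss11b* at chr5:86663394-86663416, minus strand, around the codon of the catalytic histidine, which is in capitals.
Run shared by Tmprss11b and Tmprss11f: ctgctcacagcagctCATtgctt
The longest runs shared with *Tmprss11d* and *Tmprss11e* were 18 and 16 bases, and those shared with *St14* and *Prss8* were 17 bases each. The target sites of sh2 and sh3 were not analysed here, so their place relative to these runs is not given. The activation site of PAR2 is shown for the receptor that such proteases cut, with the codons of the arginine and the serine on either side of the cut in capitals (chr13:95514244-95514273, minus strand, exon 2).
F2rl1: aacagtaaaggaAGAAGTcttattggcaga

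Counts on genes ranged from 20653219 to 24047784 per tumor, so that 3 counts, taken as the limit of detection, corresponded to 0.123 to 0.152 CPM (each count scaled to the TMM-adjusted library size). PCR copies were not marked by molecular identifiers, so the counts can include them. This set limit allows for counting error only and not for uneven amplification. Of the 10 genes, 9 passed the filter on low counts and were tested among 14725 genes. *Tmprss11d* was not tested. *Tmprss11b* passed through its control tumors, since the level that the filter asks for (0.432 CPM in 3 tumors) was reached in 3 of 3 control tumors and in 1 of the 6 shRNA tumors. Of the 9 libraries, 2 stood apart. For sh2 replicate 2 the summed CPM of 7 intestinal marker genes (*Cdx2*, *Cdh17*, *Isx* and others) was 657, against 13.2 to 41.3 in the other 8 tumors. Control replicate 1 had far more RNA of several squamous genes than the rest, for example 87.4 CPM of *Krt5*, a basal keratin, against 0.0856 to 5.02 in the other 8. Several results of the members are given with and without 1 of these libraries, as are the counts over the squamous, epithelial, fibroblast and muscle lists. The label of the line was checked against squamous genes. *Krt14*, *Krt6a* and *Krt17*, the 3 highest of the list, were present in every group, with means over all tumors of 134, 151 and 11.8 CPM. Other defining genes were scarce. *Krt13* (23 counts in all) and *Ivl* (34 counts in all) were close to 0, and outside control replicate 1 *Krt5*, *Krt1* and *Dsc3* were at most 5.02, 0.435 and 0.821 CPM. *Trp63*, which encodes the basal cell factor p63, was between 0.370 and 6.94 CPM over the 9 tumors.

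The levels of the 10 genes per length separated them into an abundant and a scarce set. On the scale of deposited TPM, averaged over the 9 tumors, *Spint2* was highest at 466 ± 71.5 (SD, n = 9). It was followed by *St14* at 159 ± 30.5, *Spint1* at 148 ± 36.4, *Tmprss11e* at 107 ± 48.4, *F2rl1* at 73.6 ± 37, *Prss8* at 51.2 ± 6.66 and *Tmprss4* at 43.9 ± 25.6. The other 3 were scarce, with *Tmprss11b* at 0.718 ± 0.804, *Tmprss2* at 0.349 ± 0.366 and *Tmprss11d* at 0.188 ± 0.146. Only 2 steps of this order had ranges that did not overlap. *Spint2* was above *St14* in 9 of 9 tumors, and *Tmprss4* was above *Tmprss11b* in 9 of 9 tumors. All other neighbours in the order had overlapping ranges, with the higher one above the lower in 6 to 8 of 9 tumors. The middle of the order depended on the length used. With CPM per kilobase of all annotated exons of GENCODE M21, *St14* moved from rank 2 to rank 4, behind *Spint1* and *Tmprss11e*, while *Spint2* stayed first and the ranks from 5 to 10 were the same.

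**Figure D1:**
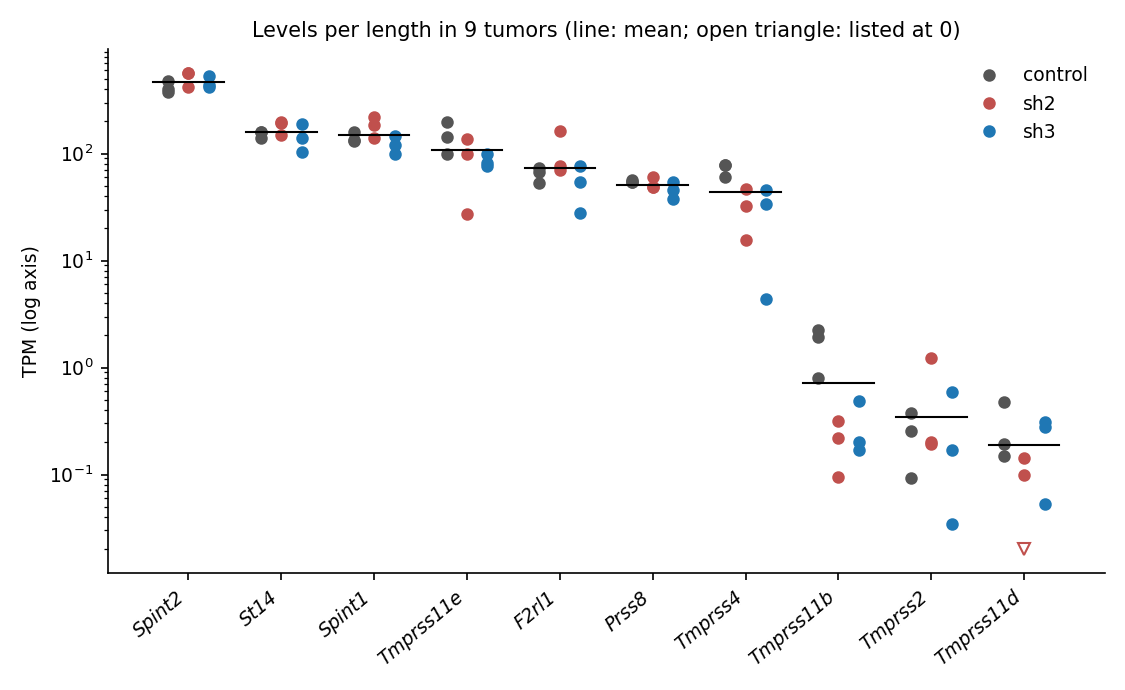
Deposited TPM (log axis) of the 10 genes in each of the 9 tumors, ordered by the mean, which is the black line. Points are tumors colored by group, and the open triangle is the tumor in which *Tmprss11d* was listed at 0. The 7 abundant genes have means from 43.9 to 466 TPM and the 3 scarce ones lie below 1 TPM on average.

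*Tmprss11b* had the most negative fold change of the set. Its TPM was 0.807, 2.24 and 1.92 in the control tumors, 0.320, 0.0958 and 0.217 with sh2, and 0.490, 0.170 and 0.203 with sh3. Every shRNA tumor was below every control tumor. These values rest on 111 reads in the controls and 33 in the 6 shRNA tumors. That of sh2 replicate 2 rests on 2 counts, under the limit of detection of 3 counts. The fitted log2 fold change was −2.63 for both constructs together (SE 0.46, 95% interval −3.68 to −1.58), or 0.162 of the control level. It was −2.89 with sh2 (interval −4.24 to −1.54) and −2.36 with sh3 (interval −3.67 to −1.06). The unadjusted p of edgeR's quasi-likelihood test, 0.000298 for both constructs, ranked *Tmprss11b* first of the 14725 genes, but the FDR over all genes was 0.982. Because the gene passed the filter on low counts through its control tumors, which favors a lower value with the constructs, this rank is a description only. With both constructs together *Tmprss11b* passed the threshold of 0.05 in other count tests. The FDR was 0.00249 in edgeR's likelihood ratio test and 0.0486 in DESeq2's Wald test. The gene entered these tests through the same filter, so these values are a description only as well. For a single construct it missed the threshold in these tests as well, with an FDR of 0.177 for sh2 and 0.125 for sh3 in the likelihood ratio test and of 0.146 and 0.150 in DESeq2. Without sh2 replicate 2 the log2 fold change with sh2 was −2.58. A difference between the constructs was not shown for this gene (sh3 against sh2, log2 difference 0.53, interval −0.89 to 1.95, edgeR FDR = 0.858).

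No gene passed an FDR of 0.05 in edgeR's quasi-likelihood test in any comparison, so the share called was 0% of 14725 genes in each. At an unadjusted p under 0.05 the test returned 518 genes for sh2, 976 for sh3, 602 for both constructs and 1057 for sh3 against sh2. DESeq2 called 2, 41, 9 and 46 genes in the same order. Of the 9 members tested, 2 had an unadjusted p under 0.05 with both constructs (*Tmprss11b* lower and *Spint2* higher), against 4.09% of all genes. Likewise 2 members, *Tmprss11b* and *Tmprss4*, were lower in all 6 shRNA tumors than in all 3 control tumors, and no member was higher in all 6. Over all genes tested, 0.958% were lower in this way and 1.21% were higher. *Tmprss11b* is in these counts through its control tumors, which took it past the filter. With sh3 alone, where 6.78% of all genes were higher in this way, *Spint2* was above all controls in 3 of 3 tumors. For sh3 against sh2, *Spint1* and *F2rl1* were the 2 members with an unadjusted p under 0.05, against 7.18% of all genes. When sh2 replicate 2 was left out, *Tmprss11b* alone of the members was under 0.05 with both constructs, and no member was for sh3 against sh2. Over all genes 433 of 14953 were then under 0.05 with both constructs, in either direction. With sh3 against the control, *Tmprss11b* and *Tmprss11e* were under 0.05 in that refit, both lower. Over all genes 1006 of 14953 were under 0.05 with sh3 in that refit, in either direction. Without control replicate 1, *Tmprss11b* (lower), *Spint1* and *Spint2* (both higher) were under 0.05 with sh2. In that refit 418 of 14908 genes were under 0.05 with sh2, in either direction. The median log2 fold change with both constructs was 0.19 over the 9 members (0.04 without sh2 replicate 2) and 0.02 over all genes.

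**Figure D2:**
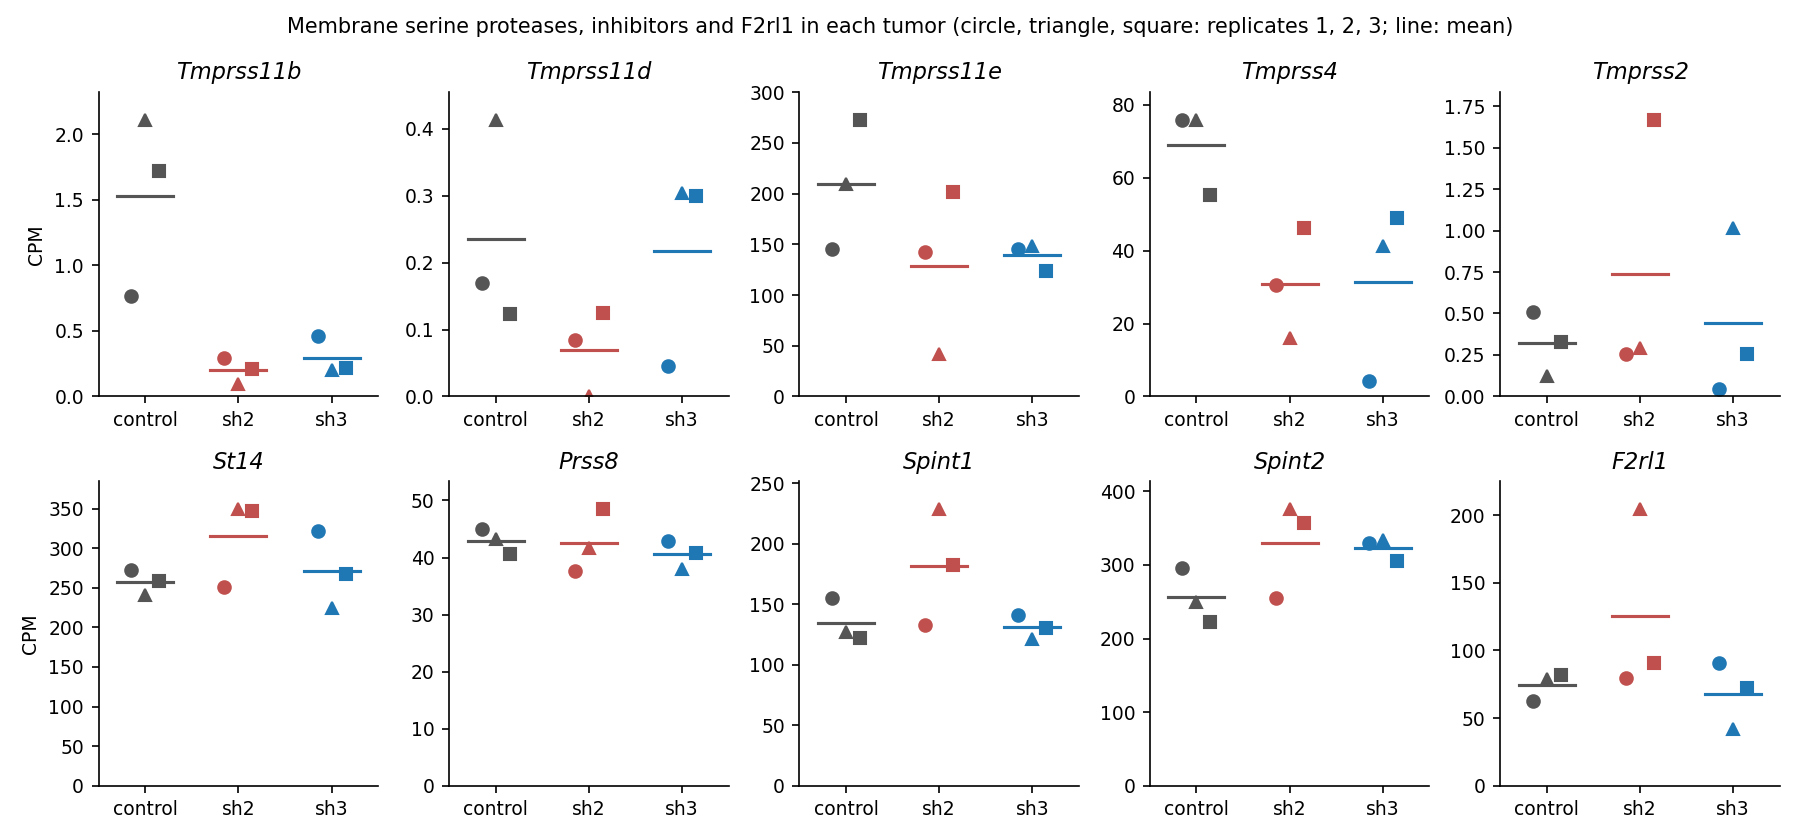
CPM of each of the 10 genes in each tumor (linear axes from 0, a different scale per panel), with the 3 tumors of a group as circle, triangle and square and the group mean as a line. *Tmprss11b* and *Tmprss4* are the panels in which every sh2 and sh3 tumor lies below every control tumor, whereas *Prss8* stays between 37.6 and 48.5 CPM in all 9.

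*Tmprss4*, a membrane protease described mainly in epithelial cancers, was the other gene below the controls throughout. Its CPM was 75.8, 75.9 and 55.2 in the control tumors, 30.5, 16.0 and 46.3 with sh2, and 4.21, 41.3 and 48.9 with sh3. The highest shRNA tumor was 11.6 times the lowest, with sh3 replicate 1 far below the rest, and the highest of them was just under the lowest control tumor. For both constructs the log2 fold change was −1.14 (SE 0.58, interval −2.46 to 0.17, edgeR FDR = 0.982), with −1.16 for sh2 and −1.13 for sh3. Its interval includes 0, so a difference beyond the spread between tumors was not shown. Without sh3 replicate 1 the log2 fold change with sh3 was −0.61, and without sh2 replicate 2 that with sh2 was −0.84. Reads of *Tmprss4* and of *Gm17099*, an annotated gene on the opposite strand that overlaps one of its exons, are told apart only if strand was used in counting, and the strand setting is not given in the sources used here.

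*Tmprss11e*, one of the genes that flank *Tmprss11b* in the genome, was expressed at a level far above it. Within a tumor the ratio of their TPM ranged from 64.4 to 628. The CPM of *Tmprss11e* was 146, 209 and 273 in the control tumors, 142, 41.8 and 202 with sh2, and 145, 149 and 124 with sh3. The groups overlapped, since 1 control tumor was at the level of the sh3 tumors. Both constructs together gave a log2 fold change of −0.65 (SE 0.39, interval −1.54 to 0.25, edgeR FDR = 0.982). The lowest value was that of sh2 replicate 2, and without it the log2 fold change with sh2 moved from −0.70 to −0.28. That with sh3 was −0.59 (unadjusted p = 0.24 in edgeR's test). Without sh2 replicate 2 it was −0.60, with an unadjusted p under 0.05 and an FDR of 0.711. Without control replicate 1 the change with both constructs was −0.86. On the linear scale the interval for both constructs runs from 0.345 to 1.19 of the control level.

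*Tmprss2* and *Tmprss11d* were near the limit of detection. *Tmprss2*, which encodes a protease known as an androgen-regulated gene of the prostate and as a primer of viral entry, had 12, 3 and 8 counts in the controls, 6, 6 and 40 with sh2, and 1, 20 and 6 with sh3. The highest tumor was sh2 replicate 3, and all 3 groups overlapped. With both constructs the log2 fold change was 0.81, with an interval from −1.31 to 2.93, too wide to place the gene above or below the control. With sh2 it was 1.20, or 1.57 without sh2 replicate 2 and −0.23 without sh2 replicate 3. *Tmprss11d* had 4, 10 and 3 counts in the controls, 2, 0 and 3 with sh2, and 1, 6 and 7 with sh3. The count of 0 in sh2 replicate 2 allows up to 0.145 CPM. No difference was detectable at this depth, and no fold change is given.

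**Figure D3:**
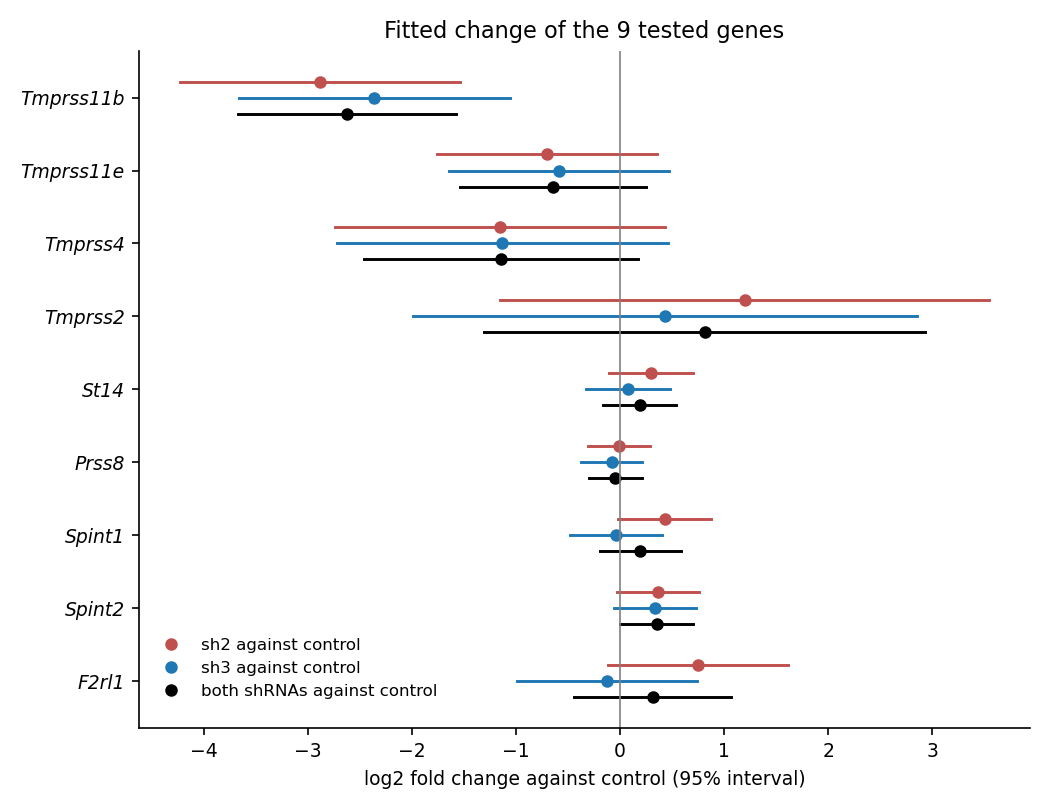
Fitted log2 fold change against the control with its 95% interval for the 9 genes tested, with sh2, sh3 and both constructs in separate colors and the vertical line at no change. The 3 intervals of *Tmprss11b* lie wholly below 0, that of *Spint2* with both constructs lies just above 0 (0.0029 to 0.70), and all others include 0.

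Matriptase and prostasin were the steadiest proteases of the set. CPM of *St14* was 272, 241 and 258 in the controls, 251, 350 and 347 with sh2, and 322, 224 and 267 with sh3. The sh2 tumors 2 and 3 were the highest, and the groups overlapped. For *St14* the log2 fold change with both constructs was 0.19 (interval −0.17 to 0.54, edgeR FDR = 0.982), which corresponds to 0.891 to 1.45 of the control level, and without sh2 replicate 2 that with sh2 moved from 0.30 to 0.22. CPM of *Prss8* was 45.0, 43.2 and 40.7 in the controls, 37.6, 41.6 and 48.5 with sh2, and 42.9, 37.9 and 40.8 with sh3, with every group inside the range of the sh2 tumors. Its coefficient of variation over the 9 tumors was 8.12%, the lowest of the 10 genes, against 16.5% for *St14*, 40.4% for *Tmprss11e* and 55.6% for *Tmprss4*. *Prss8* had a log2 fold change of −0.05 with both constructs (interval −0.30 to 0.21), so that a change beyond 0.811 or 1.15 of the control level lay outside the interval. With sh2 it was −0.012, and 0.0081 without sh2 replicate 2. An exon of *Prss8* overlaps *Kat8* on the opposite strand, which carries the same limit on strand as for *Tmprss4*.

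The 2 inhibitor genes differed in which tumors were high. CPM of *Spint1* was 155, 127 and 122 in the controls, 133, 229 and 183 with sh2, and 141, 121 and 130 with sh3. The sh2 tumors 2 and 3 stood above the others, and the sh3 tumors lay within the range of the controls, apart from replicate 2 just below it. Its log2 fold change was 0.43 with sh2 (interval −0.02 to 0.87) and −0.04 with sh3 (interval −0.49 to 0.40). The difference between the constructs, −0.47 for sh3 against sh2, had an unadjusted p of 0.0407 and an FDR of 0.673 in edgeR's test. Without sh2 replicate 2 the change with sh2 was 0.23, and that with sh3 turned positive without control replicate 1 (0.056) or sh3 replicate 2 (0.0093). Without control replicate 1 the change with sh2 was 0.54, with an unadjusted p under 0.05 in edgeR's test (FDR = 0.999).

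CPM of *Spint2* was 296, 250 and 223 in the controls, 255, 376 and 358 with sh2, and 330, 334 and 306 with sh3. All sh3 tumors, and 2 of the 3 sh2 tumors, were above all controls. Its log2 fold change with both constructs was 0.35 (SE 0.15, interval 0.0029 to 0.70, unadjusted p = 0.0485, edgeR FDR = 0.982), which did not pass the test over all genes. It ranged from 0.25 to 0.46 when each tumor was left out in turn, and was 0.29 without sh2 replicate 2. The change with sh2 alone was 0.36, and 0.26 without sh2 replicate 2. Without control replicate 1 it was 0.48, with an unadjusted p under 0.05 in edgeR's test (FDR = 0.999). Within a tumor, the TPM ratio of *St14* to *Spint1* was between 0.865 and 1.29 in all 9 tumors, and that of *St14* to *Spint2* between 0.244 and 0.422. The ratio of *Prss8* to *Spint1* ran from 0.223 in sh2 replicate 2 to 0.414. Between the inhibitors, *Spint2* over *Spint1* was between 2.56 and 4.28. The ratio of *Spint2* to *Spint1* was 3.65 or more in the 3 sh3 tumors and at most 3.06 in the other 6. This separation was picked from several ratios after their values were seen and carries no test. How often other pairs of genes separate in this way was not computed.

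PAR2 varied mainly through one tumor. CPM of *F2rl1* was 62.6, 78.9 and 81.5 in the controls, 79.8, 205 and 91.1 with sh2, and 90.5, 41.8 and 72.0 with sh3. The highest value was again sh2 replicate 2. Its log2 fold change was 0.75 with sh2 (interval −0.11 to 1.62), −0.13 with sh3 (interval −0.99 to 0.74) and 0.31 with both (edgeR FDR = 0.982). Between the constructs it was −0.88 (unadjusted p = 0.0479, edgeR FDR = 0.673). Without sh2 replicate 2 the change with sh2 was 0.21, and with both constructs it was 0.04. The change with sh3 turned to 0.13 without sh3 replicate 2. The other protease-activated receptors, *F2r*, *F2rl2* and *F2rl3*, encode PAR1, PAR3 and PAR4. None of the 3 passed the test, with log2 fold changes of 0.01, 0.41 and 0.06 for both constructs. *F2r* was the most abundant of them by count, at 82.7 ± 3.75 CPM (SD, n = 3) in the controls.

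The remaining genes of the *Tmprss11* cluster were low. The annotation places 7 genes of the family on chromosome 5, all on the minus strand, between 86231481 and 86745815, a span of 514.3 kb. *Tmprss11b* itself lies at chr5:86657631-86676362, with 25.2 kb to *Tmprss11f* on one side and 28.8 kb to *Tmprss11e* on the other. *Tmprss11f* had 18, 39 and 14 counts in the controls, 6, 2 and 14 with sh2, and 8, 4 and 3 with sh3. Only sh2 replicate 3, at 0.584 CPM, overlapped the controls, of which the lowest was at 0.573 CPM. Its log2 fold change was −1.84 with both constructs (interval −3.12 to −0.56, unadjusted p = 0.00976, edgeR FDR = 0.982), and like *Tmprss11b* it passed the filter on low counts through its control tumors, since 1 of 6 shRNA tumors reached the filter's level. Its log2 fold change was −1.65 without sh2 replicate 2. *Tmprss11a* and *Tmprss11g* had 10 and 56 counts over all 9 tumors and were not tested. *Tmprss11c* was not matched in the table.

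**Figure D4:**
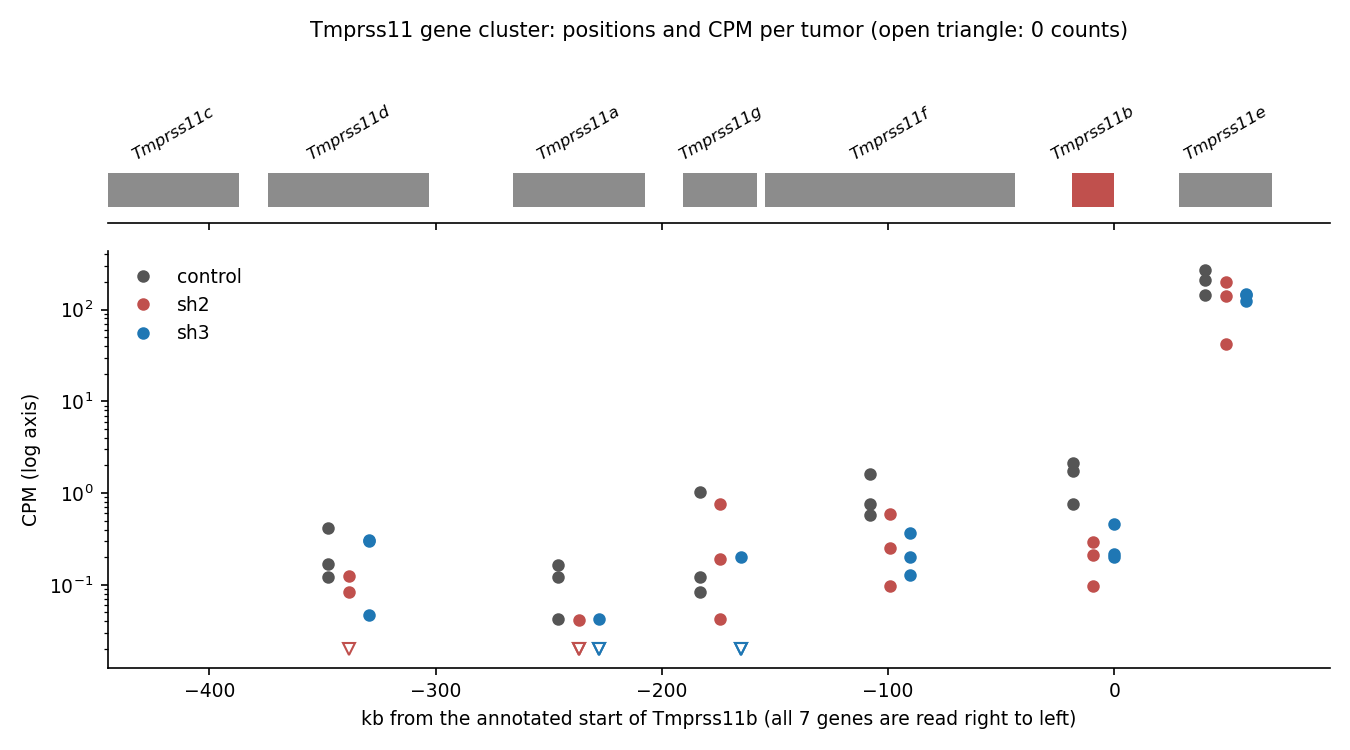
Positions of the 7 *Tmprss11* genes as distance in kb from the annotated start of *Tmprss11b* (top), and their CPM on a log axis in each tumor (bottom), with the groups set slightly apart. *Tmprss11e* lies above 40 CPM in every tumor, whereas the other 5 genes with data stay below 3 CPM, and the sh2 and sh3 tumors lie below the controls at *Tmprss11b* and, with overlap, at *Tmprss11f*.

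Genes outside the 10 were taken from lists of the same pathway. Of 14 further transmembrane proteases 12 were in the table and 3 were tested. None passed the test with either construct or both, and besides *Tmprss11f* these were *Tmprss6* (matriptase-2, a regulator of hepcidin) with a log2 fold change of −0.47 and *Hpn* (hepsin) with 0.09. Of 8 lipid-anchored or related proteases 2 were tested. *Prss22*, the more abundant, was at 66.1 ± 14.9 CPM (SD, n = 3) in the controls, with a log2 fold change of 1.06 with sh2 and 0.43 with sh3, neither past the threshold. Its highest tumor was sh2 replicate 2 at 222 CPM, and without it the log2 fold change with sh2 was 0.53. *Prss27* had a log2 fold change of −0.26 with both constructs.

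Among 15 further serine protease inhibitors 9 were tested and none passed an FDR of 0.05. The 3 most abundant, *Serpinb6a*, *Serpinb9* and *Serpine2* (protease nexin-1), had log2 fold changes of 0.26, 0.03 and −0.32 with both constructs. *Serpinb2* (PAI-2) and *Serpinb5* (maspin) were the 2 of these 9 with an unadjusted p under 0.05 with both constructs, against 4.09% of all genes, at −1.28 and −0.87. They are named after their values were seen, and without control replicate 1 *Serpinb5* was no longer under 0.05 (−0.82). The list's median log2 fold change was −0.14.

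Of 22 substrates and partners 14 were tested and none passed the threshold. *Epcam*, whose protein is cut by matriptase, had a log2 fold change of 0.27. *Bsg* (basigin, the chaperone of lactate transporters) was at 0.19 and *Met* (the receptor of hepatocyte growth factor) at 0.16. Of these 14, only *Hgfac*, the gene for the growth factor activator, had an unadjusted p under 0.05 for both constructs together. Over all genes tested the share was 4.09%. The log2 fold change of *Hgfac* was −1.59, and it is also named after its value was seen. Without control replicate 1 its p was 0.0829. With sh2 alone 2 genes of the list were higher at an unadjusted p under 0.05, and with sh3 alone 2 were lower. Over all 14725 genes tested, 518 with sh2 and 976 with sh3 were under 0.05 in either direction. The median log2 fold change of the list was 0.02, as over all genes tested.

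Markers of squamous cells were lower on balance with the constructs, largely through one control tumor. All 12 squamous genes tested had a negative log2 fold change with both constructs, with a median of −2.21, and 7 of them had an unadjusted p under 0.05 in that direction, against 2.74% of all genes. None passed the threshold over all genes. Without control replicate 1 the median was −0.21, 8 of 12 were negative, and *Krt16* alone had an unadjusted p under 0.05 (log2 fold change −1.91), against 1.95% of all genes. Their summed CPM was 925, 496 and 218 in the controls, 248, 224 and 234 with sh2, and 68.9, 303 and 413 with sh3, so the groups overlapped in this sum. The tumor with the least squamous RNA, sh3 replicate 1, was also the one with the least *Tmprss4*. The control tumor with the most squamous RNA, replicate 1, had the lowest *Tmprss11b* of the controls, and without it the log2 fold change of *Tmprss11b* with both constructs was −2.95 and that of *Tmprss4* −1.08. The part of the squamous genes in these results was not tested.

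Epithelial markers were positive on balance with both constructs together, mainly through sh2. Of 13 tested, 11 had a positive log2 fold change with both constructs (median 0.26, against 0.02 over all genes), and none passed the threshold. With sh2 all 13 were positive (median 0.39). With sh3 7 were positive and 6 negative (median 0.06). Without sh2 replicate 2, 10 of 13 were positive with both constructs, with a median of 0.17. Their summed CPM was 4222 to 5570 in the controls, 4446 to 9207 with sh2 and 4643 to 5356 with sh3, with the highest sum in sh2 replicate 2, the tumor that was also highest for *F2rl1*, *Spint1*, *Spint2* and *St14*. *Krt19*, *Krt8* and *Krt18*, the 3 most abundant, had log2 fold changes of 0.37, 0.14 and 0.22. Fibroblast markers summed to 3116 to 5456 CPM in the controls, 2423 to 4038 with sh2 and 1315 to 2311 with sh3. The sh3 sums lay below the control sums, but how often such sums separate was not computed. *Col1a1*, *Col1a2* and *Col3a1* were the highest of the list in every tumor. With both constructs 4 of 7 had an unadjusted p under 0.05 in the lower direction in edgeR's test, against 2.74% of all genes. None passed the threshold, and without control replicate 1 only *Col1a2* was under 0.05. Endothelial markers summed to 183 to 219 CPM in the controls and to 124 to 192 in the shRNA tumors. Leukocyte markers summed to 1465 to 1662, 1314 to 1745 and 935 to 3079 CPM in the control, sh2 and sh3 groups. Muscle markers summed to 14.7 to 2649 CPM in the controls, 3.38 to 98.4 with sh2 and 78.5 to 874 with sh3. All 5 had an unadjusted p under 0.05 in the lower direction with sh2 (median log2 fold change −4.45), against 1.87% of all genes, and none passed the threshold over all genes. None of the 5 was under 0.05 without sh2 replicate 2 (median −4.27). The part of these cell types in the values of the 10 genes was not tested.

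The 3 pairs of *St14*, *Spint1* and *Epcam* passed the test by Pearson correlation. No pair with *Spint2* passed, though *Spint2* with *Epcam* came close to the threshold. Over the 9 tumors, and among 10 pairs of 5 genes, log2 CPM of *St14* correlated with that of *Spint1* (Pearson r = 0.85, exact permutation p = 0.00293, adjusted 0.0147, Spearman rho = 0.9, exact permutation p = 0.00203, adjusted 0.0203). *St14* also correlated with *Epcam* (r = 0.90, exact permutation p = 0.00291, adjusted 0.0147, rho = 0.7, exact permutation p = 0.0433, adjusted 0.0865), and *Spint1* with *Epcam* (r = 0.78, exact permutation p = 0.0107, adjusted 0.0358, rho = 0.7, exact permutation p = 0.0433, adjusted 0.0865). The tests are two-sided and the adjustment runs over the 10 pairs. The other 7 pairs had r from 0.32 to 0.75 and did not pass after adjustment, among them *Spint2* with *St14* (r = 0.64), *Spint1* (0.69) and *Epcam* (0.75). For *Spint2* with *Epcam* the adjusted exact permutation p was 0.0536. By rank correlation only *St14* with *Spint1* passed after adjustment. A difference between the pairs that passed and the others was not tested.

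These relations rested in part on few tumors. Without sh2 replicates 2 and 3, the 2 tumors farthest from the median of *St14*, r fell to 0.62 for *St14* with *Spint1* (exact permutation p = 0.149, n = 7) and to 0.74 for *St14* with *Epcam* (exact permutation p = 0.0685, n = 7). Without the same tumors r was 0.49 for *Spint1* with *Epcam* (exact permutation p = 0.270, n = 7). With only sh2 replicate 2 left out, r was 0.82, 0.87 and 0.81 for the 3 pairs in the order given. With the group means removed, r over the 9 tumors was 0.80, 0.86 and 0.74 for the same pairs. It was 0.90 for *Spint1* with *Spint2* and for *Prss8* with *Epcam*, and between 0.59 and 0.77 for the remaining pairs. The labels give no batch, so no value within batches can be given.

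**Figure D5:**
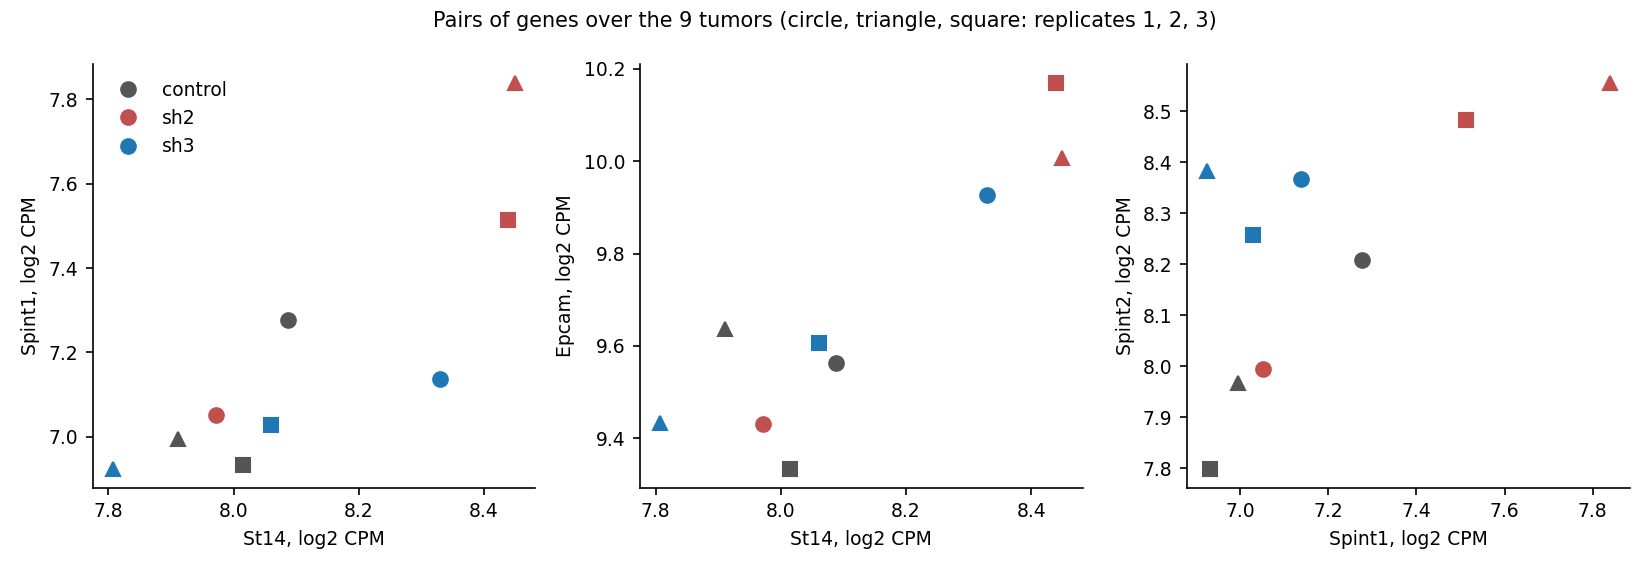
Log2 CPM (prior count of 2) of *St14* against *Spint1* and *Epcam*, and of *Spint1* against *Spint2*, with 1 point per tumor colored by group. The sh2 tumors 2 and 3 (triangle and square) lie at the upper right of each panel, and the 3 sh3 tumors have more *Spint2* at a given *Spint1* than most of the others.

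The genes whose log2 CPM followed *Tmprss11b* most closely over the 9 tumors, of 14724 others, were *Slc16a11* (Pearson r = 0.95), *Igf2* (0.93), *Sgcb* (0.89), *Mmp24* (0.89) and *Akr1c14* (0.89). With the group means removed these values fell to between 0.60 and 0.84. *Slc16a11* encodes a member of the monocarboxylate transporter family and was itself scarce, at 0.0966 to 0.655 CPM. The closest to *St14* were *Map3k9* (r = 0.95), *Vars* (0.94), *Tmem138* (0.94), *Rhou* (0.93) and *Npepps* (0.93). These are the highest of many correlations over few tumors, chosen for their size, and carry no test.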

How the data were processed

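RNA of 9 KLN205 tumors, 3 per group, was analysed, with groups and replicate numbers taken from the labels. Per the labels and the study's methods, libraries were made with a stranded poly(A) kit, reads were aligned to mm10 with STAR 2.5.3a, and featureCounts produced the raw counts that the authors deposited for 19481 genes. The authors also deposited TPM, which were used for levels per length. The strand and multiple-mapping settings and the gene annotation are not given in the sources used here. A further 9 CPM columns, and 10 columns of the authors' own comparisons (fold changes, p-values and FDR), were not used.

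Counts were fitted in R 4.3.3 with edgeR 4.0.16 (filterByExpr by group, TMM, robust quasi-likelihood test, 1 coefficient per group, all 9 tumors). The contrasts were sh2, sh3 and their mean against the control, and sh3 against sh2. P-values were adjusted by Benjamini-Hochberg over the 14725 genes tested, with an FDR threshold of 0.05. The standard error of a log2 fold change is its size over the square root of F, and its 95% interval uses the test's degrees of freedom. The fit was tested on simulated data. CPM are counts over TMM-scaled totals, and correlations used log2 CPM with a prior count of 2 and exact permutation of the pairings. Gene models and sequences came from GENCODE M21 (GRCm38), with 1 principal coding transcript per gene. The tumors of a group came from different mice, so p-values measure the spread between tumors.

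Genes named are the 10 members, genes of each pathway or marker list past the threshold plus the 3 of the list with the most counts, the 5 genes most like *Tmprss11b* and *St14*, and the *Tmprss11* family. Any other gene is named after its value was seen. The members and all lists were chosen with earlier results of these data known. Alternatives were DESeq2 1.42.0 size factors or its Wald test, edgeR's likelihood ratio test with current or earlier dispersion functions, other filters, only the groups compared, the replicate number as a block, a prior count of 0.5 and each tumor left out. The lists were also refitted without control replicate 1 and without sh2 replicate 2, which was chosen after seeing the data.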

Additional observations from a re-analysis of the deposited data

How the results depend on the processing

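The number of genes past an FDR of 0.05 was 0 in every comparison under edgeR's quasi-likelihood test, with TMM or DESeq2 size factors, with each filter, with only the groups compared, with the replicate block (0 genes in each comparison) and without any 1 tumor. The numbers differed with other tests. For sh2, sh3, both constructs and sh3 against sh2, DESeq2's Wald test called 2, 41, 9 and 46 genes. The edgeR likelihood ratio test called 8 for sh3, 8 for both constructs and 14 for sh3 against sh2, and none for sh2. With the earlier dispersion functions and no filter it called 15, 10, 76 and 27 genes. *Tmprss11b* with both constructs passed the threshold in these 3 tests, with log2 fold changes of −2.65, −2.63 and −2.62. Where the filter on low counts was kept, the gene entered through its control tumors, so a pass there is a description only. With a single construct it passed in none of the 3 tests. The cause was not tested. Asking every tumor to reach 10 counts leaves *Tmprss11b* and *Tmprss2* out, so no value could be given. With the replicate block the log2 fold change of *Tmprss11b* was −2.68, and the block changed no call. Tumors that share a number had a mean correlation of −0.10 after removal of group means, against 0.05 for other pairs. The ranges overlapped (−0.24 to 0.09 and −0.30 to 0.39). Tumors with the same number were thus not more alike, but without a test this cannot settle whether the number pairs them.

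The other 8 members tested passed the threshold under none of these settings in any contrast with the control (lowest FDR 0.471), and 386 of 395 values had the direction of the fit reported. The 9 that turned all came from leaving out 1 tumor. Log2 fold changes then ranged from −0.23 to 1.69 for *Tmprss2* with sh2, −1.03 to 0.96 for *Tmprss2* with sh3, −0.11 to 0.066 for *Prss8* with sh2, −0.066 to 0.20 for *St14* with sh3, −0.12 to 0.056 for *Spint1* with sh3 and −0.38 to 0.13 for *F2rl1* with sh3.

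The correlations moved across the threshold with single tumors, and a prior count of 0.5 moved none across it. Without 1 tumor, r ranged from 0.82 to 0.92 for *St14* with *Spint1*, 0.86 to 0.93 for *St14* with *Epcam* and 0.75 to 0.85 for *Spint1* with *Epcam*. It ranged from 0.43 to 0.75 for *St14* with *Prss8*, 0.51 to 0.90 for *St14* with *Spint2*, 0.32 to 0.84 for *Prss8* with *Spint1* and 0.47 to 0.81 for *Prss8* with *Epcam*. For *Spint1* with *Spint2* it ranged from 0.57 to 0.83, and for *Spint2* with *Epcam* from 0.68 to 0.90. The 3 pairs past the threshold lost it without sh2 replicate 3 (adjusted exact permutation p = 0.0595, 0.0595 and 0.0785 in the order given). *St14* with *Epcam* also lost it without sh3 replicate 1, and *Spint1* with *Epcam* without control replicate 3, sh2 replicate 1, sh3 replicate 1 or sh3 replicate 3. *Prss8* with *Epcam* gained it without control replicate 1 or sh2 replicate 2, *Prss8* with *Spint1* and *St14* without sh2 replicate 2, *Spint2* with *Spint1* and *St14* without sh3 replicate 2, and *Spint2* with *Epcam* without control replicate 2 or sh3 replicate 2.

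Depth limits the scarce members. At 3 counts per tumor as the limit of detection, no difference was detectable for *Tmprss11d*. *Tmprss2*, with 1 to 40 counts per tumor, was tested, and its interval with both constructs (−1.31 to 2.93) was too wide to place it. *Tmprss11b* rests on 144 counts in all.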
